A study of Mus musculus with 19 samples.

Results

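Some synucleins and neuronal intermediate filament proteins, and the surface protein Thy1, are long-used markers of retinal ganglion cells (RGCs), the neurons that send the retina's output to the brain. The 8 genes described here are Sncb, Sncg, Nefl, Nefm, Nefh, Ina, Prph and Thy1, matched by Ensembl identifier in the GRCm38 annotation, out of 47069 genes listed in the count files. They comprise 2 synuclein genes, 3 neurofilament subunit genes, 2 other neuronal intermediate filament genes and 1 surface protein gene. RNA came from GFP-positive cells sorted from E16.5 mouse retinas (strain C57/DBA F1, genotype labelled WT, pooled male and female), in 3 libraries of ipsilaterally projecting RGCs (iRGCs) and 3 of contralaterally projecting RGCs (cRGCs). All cells carried Sun1-GFP, a nuclear envelope protein fused to GFP, expressed from the Rosa26 locus under the CAG promoter after Cre recombinase had removed a stop cassette. In iRGC samples, Cre was driven by the regulatory sequences of Slc6a4 (Sert), the serotonin transporter gene that ipsilateral RGCs switch on. In cRGC samples, Cre had been targeted into the locus of Pou4f2 (Brn3b), a transcription factor gene of most RGCs, and the ventrotemporal retina, where iRGCs arise, had been removed. Cre recombination is permanent, so the gate holds every cell in which the driver was once active, and its descendants.

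Synucleins are small, soluble proteins of axons and presynaptic terminals that bind membranes and assist the handling of synaptic vesicles. Neurofilaments are the intermediate filaments of axons: light, medium and heavy subunits, together with α-internexin or peripherin, assemble into long polymers that fill the axon and set its calibre. α-Internexin is typical of young central neurons, peripherin of neurons with axons in peripheral nerves, and the heavy subunit of mature, thick axons. Thy1 is a small immunoglobulin-domain protein held in the neuronal membrane by a glycolipid (GPI) anchor, and its promoter is widely used to mark RGCs in the adult retina.

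The 8 genes lie on 6 chromosomes of GRCm38. Sncg (chr14:34370274-34374789, minus strand) shares its chromosome with the neighbouring pair Nefl (chr14:68083863-68089095, plus strand) and Nefm (chr14:68082590-68124846, minus strand). Sncb lies at chr13:54758860-54766595 (minus), Nefh at chr11:4938754-4948064 (minus), Ina at chr19:47014698-47025327 (plus), Prph at chr15:99055174-99058978 (plus) and Thy1 at chr9:44043384-44048579 (plus). The first of the 4 exon blocks of Nefl shares 1108 bases (chr14:68083863-68084970) with exons of Nefm on the opposite strand, which is 32.8% of the exonic bases of Nefl and 19.2% of those of Nefm. The first of the 3 exon blocks of Ina shares 456 bases (chr19:47014698-47015153) with the opposite-strand gene Nt5c2, 14.1% of the exonic bases of Ina. Whether reads were counted by strand is not given in the sources used here, so the counts of Nefl, Nefm and Ina are uncertain in these stretches. The other 5 genes share no exonic base with another gene.

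For 4 of the 8 genes (Sncb, Sncg, Ina and Prph), RefSeq sequence upstream of the start was at hand (GRCm38.p6), and the 250 bases before the start were read on the strand of the gene. The windows of Sncg, Ina and Prph are shown, because these genes stand for the abundant synuclein, the abundant filament protein and the scarce filament protein of the results. Capitals mark a match to TATAAA, the core of the TATA box. The stretches shown are Sncg at chr14:34374790-34374919 (minus, without the last 120 bases of its window, which lie inside the annotated gene), Ina at chr19:47014431-47014680 (plus) and Prph at chr15:99054924-99055173 (plus).
Sncg: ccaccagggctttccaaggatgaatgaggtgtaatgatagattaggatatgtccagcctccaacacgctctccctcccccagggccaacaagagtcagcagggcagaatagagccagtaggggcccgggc
Ina: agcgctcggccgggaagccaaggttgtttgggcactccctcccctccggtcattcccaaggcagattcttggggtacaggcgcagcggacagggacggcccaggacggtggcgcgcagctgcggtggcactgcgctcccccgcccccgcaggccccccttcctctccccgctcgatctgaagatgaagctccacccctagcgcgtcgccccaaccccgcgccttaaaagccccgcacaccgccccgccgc
Prph: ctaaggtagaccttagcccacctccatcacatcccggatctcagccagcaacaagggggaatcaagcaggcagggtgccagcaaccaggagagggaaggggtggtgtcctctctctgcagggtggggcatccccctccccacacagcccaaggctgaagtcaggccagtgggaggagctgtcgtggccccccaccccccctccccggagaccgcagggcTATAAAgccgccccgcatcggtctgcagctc
TATAAA was searched on both strands, where its reverse complement is TTTATA, and it occurred in the Prph window alone among the 4, from 31 to 26 bases before the start and on the strand of the gene. Over all 32851 windows of the same length, 12.37% held it. ATTAAT, a palindromic word with the core letters of sites bound by Pou4f proteins, was in none of the 4 windows and in 4.386% of all windows. A search for 1 exact word in these windows cannot show that a gene lacks Pou4f sites. For Sncg, the paper reported Pou4f footprints upstream of and inside the gene in cRGCs. It also reported a predicted Pou4f1 motif in an upstream stretch that Pou4f1 activated in a luciferase assay. GC content was 58.8% for Sncb, 61.6% for Sncg, 70.8% for Ina and 65.2% for Prph, against a median of 52.4% over all windows. The observed-to-expected ratio of CpG dinucleotides was highest for Ina, at 0.831, and was 0.491 for Sncb, 0.301 for Sncg and 0.266 for Prph.

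The libraries held 28193178, 29759011 and 30874653 counts on genes in iRGC replicates 1, 2 and 3 and 28274471, 30454674 and 33638083 in the cRGC replicates. Levels are in CPM, a gene's counts scaled to a common library size after TMM normalization. Log2 fold changes are given as iRGCs relative to cRGCs, and a negative value is a lower level in iRGCs. A gene was called at an adjusted p under 0.1 in edgeR's two-sided quasi-likelihood test, adjusted by Benjamini and Hochberg (BH) over 15941 tested genes. SE is the standard error of the log2 fold change, and values after ± are SDs over 3 libraries. With 3 libraries on each side, the smallest p an exact permutation test can give is 0.1.

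The drivers and known markers were read first as a check of the labels. Slc6a4, the driver of the iRGC sort, was at 2.06, 33.4 and 116 CPM in iRGC replicates 1, 2 and 3 and at 48.1, 35.4 and 30.5 CPM in the cRGC replicates. The library labelled iRGC replicate 1 thus had less Slc6a4 than every cRGC library, and the gene did not pass the test (log2 fold change 0.41, SE 0.929, edgeR BH-adjusted p = 0.768). Zic2, the transcription factor gene of ipsilateral RGCs, was at 133, 173 and 157 CPM in iRGCs and 57.0, 60.2 and 65.7 CPM in cRGCs, without overlap. Pou4f1, a transcription factor gene of contralateral RGCs, was at 107, 116 and 182 CPM in iRGCs and 861, 672 and 431 CPM in cRGCs. Pou4f2 was at 74.7, 133 and 98.3 CPM in iRGCs and 191, 196 and 293 CPM in cRGCs. Zic2 and the Pou4f genes thus separated the libraries by their labels, and Slc6a4 did not.

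All but Thy1, that is 7 of the 8 genes, were called lower in iRGCs, and 0 were called higher. Over all tested genes, 46.4% were called, 23.1% as lower in iRGCs and 23.3% as higher. The same 7 genes also passed a threshold of 1 on the absolute log2 fold change, as 11% of the tested genes did in the lower direction. Without iRGC replicate 1, whose Slc6a4 level went against its label, 7 of the 8 were also called lower. In the 7 genes called with all libraries, every iRGC library lay below every cRGC library, which held for 28.2% of the tested genes. The median log2 fold change of the 8 genes was -1.85, against -0.0031 over all tested genes. The log2 fold changes of the 7 called genes lay between -1.99 and -1.45, and 14.5% of the 3688 genes called lower were at or below the median of the 8. In sorted cells measured in bulk, fewer cells that express a gene and less of its RNA per cell cannot be told apart.

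Sncg, which encodes γ-synuclein, was the synuclein with the higher level. It was at 175, 215 and 418 CPM in iRGC replicates 1, 2 and 3 and at 1021, 1045 and 1025 CPM in the cRGC replicates. The cRGC libraries were nearly equal, with a coefficient of variation of 1.28%, while that of the iRGC libraries was 48.5%, and the highest iRGC library was well under the lowest cRGC library. The log2 fold change was -1.94 (SE 0.286, edgeR BH-adjusted p = 8.72e-04), and it stayed between -2.41 and -1.70 when single libraries were left out.

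Sncb, which encodes β-synuclein, a family member of presynaptic terminals, had far fewer counts. Its level was 5.63, 3.65 and 13.2 CPM in the iRGC replicates and 28.5, 29.1 and 15.04 CPM in the cRGC replicates. iRGC replicate 3 and cRGC replicate 3 nearly met, at 419 and 466 counts, and the other libraries were far apart. Sncb was lower in iRGCs, with a log2 fold change of -1.69 (SE 0.465, edgeR BH-adjusted p = 0.0184), which ran from -2.39 without iRGC replicate 3 to -1.36 without iRGC replicate 2.

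Nefl encodes the light subunit, on which the other neurofilament subunits assemble. Its level was 293, 549 and 831 CPM in iRGC replicates 1, 2 and 3 and 1988, 1976 and 2677 CPM in the cRGC replicates. Even the highest iRGC library was under the lowest cRGC library, and the lowest iRGC library was replicate 1. The log2 fold change of -1.99 was the lowest of the 7 called genes (SE 0.327, edgeR BH-adjusted p = 0.00147).

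Nefm, the medium subunit gene whose protein carries a long phosphorylated tail, was at 418, 525 and 975 CPM in iRGCs and 2131, 1809.7 and 2818 CPM in cRGCs. Replicate 3 was the highest library of both populations, and the populations did not overlap. Nefm was lower in iRGCs, with a log2 fold change of -1.82 (SE 0.304, edgeR BH-adjusted p = 0.00161).

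Nefh, the gene of the heavy subunit, ranked 10981 of the 15941 tested genes by mean CPM. It had 73, 63 and 163 counts in the iRGC replicates and 275, 323 and 310 in the cRGC replicates, or 2.35, 1.95 and 5.14 CPM and 10.6, 11.1 and 10.0 CPM. The cRGC libraries were tightly grouped, and all iRGC libraries were below them. The log2 fold change was -1.75 (SE 0.410, edgeR BH-adjusted p = 0.00871), and mean CPM was 3.36 times as high in cRGCs, beside 3.97 times for Nefl and 3.52 times for Nefm.

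Ina, the α-internexin gene, ranked 14th of the 15941 tested genes by mean CPM. Its level was 567, 798 and 1288 CPM in the iRGC replicates and 3233, 2911 and 3627 CPM in the cRGC replicates. All iRGC libraries were far under all cRGC libraries. Ina had the smallest adjusted p of the 8 genes, with a log2 fold change of -1.88 (SE 0.264, edgeR BH-adjusted p = 7.00e-04).

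Prph, the peripherin gene, was at 4.47, 1.33 and 4.35 CPM in the iRGC replicates and 6.84, 8.52 and 12.3 CPM in the cRGC replicates, from 43 to 382 counts. iRGC replicate 2 was the lowest library and cRGC replicate 3 the highest, and Prph was the only one of the 8 genes not highest, among iRGCs, in replicate 3. It was lower in iRGCs by the smallest amount of the 7 called genes, with a log2 fold change of -1.45 (SE 0.490, edgeR BH-adjusted p = 0.0429). Without cRGC replicate 3 the change was -1.18 and the call was lost (edgeR BH-adjusted p = 0.173), and over all alternatives the adjusted p of Prph ran from 0.0139 to 0.173.

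Thy1 was the exception among the 8. It was at 6.18, 1.33 and 13.8 CPM in iRGC replicates 1, 2 and 3 and at 46.5, 39.1 and 3.19 CPM in the cRGC replicates, or 192, 43 and 439 counts and 1209, 1134 and 99 counts. cRGC replicate 3 stood apart: its Thy1 level was below those of iRGC replicates 1 and 3, while its Nefl, Nefm, Ina and Prph levels were the highest of all libraries. Thy1 had the largest fitted difference of the 8, with a log2 fold change of -2.06, and also the largest SE, 0.947, and it was not called (edgeR BH-adjusted p = 0.121). The exact permutation test gave p = 0.3. Without cRGC replicate 3 the change was -2.59 and passed (edgeR BH-adjusted p = 0.0278), and over all alternatives the adjusted p of Thy1 ran from 0.0278 to 0.305. Leaving out that library thus kept the number of members called at 7, with Thy1 among them and Prph not.

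**Figure D1:**
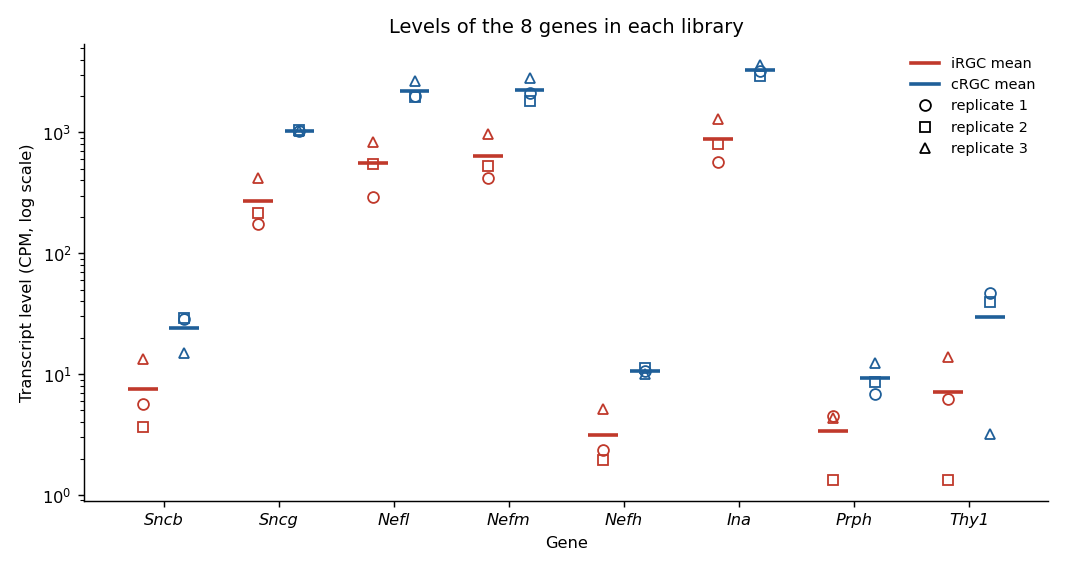
Level of each of the 8 genes in CPM (log axis) in every library, with 1 point per library and the population mean as a bar. In 7 genes all iRGC points lie below all cRGC points, and for Thy1 the lowest cRGC library, at 3.19 CPM, lies among the iRGC libraries.

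Levels of different genes were compared per kilobase of exon. In cRGCs the order of mean level per kilobase was Sncg (1209 ± 15.5 CPM per kb), Ina (1005 ± 111), Nefl (655 ± 119), Nefm (390 ± 89.1), Sncb (11.3 ± 3.70), Thy1 (9.88 ± 7.73), Prph (4.62 ± 1.41) and Nefh (2.65 ± 0.143). Ranges of neighbours in this order overlapped for Sncb with Thy1 and for Thy1 with Prph, and not elsewhere. The gap between Nefm and Sncb divided the genes into 4 abundant and 4 scarce transcripts. In iRGCs the means followed the same order, from 316 ± 153 CPM per kb for Sncg, 273 ± 114 for Ina, 165 ± 79.6 for Nefl and 111 ± 51.1 for Nefm down to 0.787 ± 0.435 for Nefh. There the ranges of all neighbours overlapped except those of Nefm and Sncb. Divided instead by the exonic bases not shared with another gene, with all counts kept, a scale added after the values were seen, Ina was at 318 ± 132 CPM per kb in iRGCs and Sncg at 316 ± 153. In cRGCs, the mean of Sncg was above that of Ina on this scale too, at 1209 ± 15.5 and 1170.0 ± 129 CPM per kb. The order of their means thus depends on the scale in iRGCs alone. Their cRGC ranges did overlap on this scale, with Ina at 1303 and Sncg at 1203 CPM per kb in replicate 3. Those of Ina and Nefl overlapped as well, with Nefl at 1178 in cRGC replicate 3 and Ina at 1046 in cRGC replicate 2.

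Intermediate filament subunits copolymerize, so their proportions were compared within each library. The summed level of the 5 filament genes was 337, 501 and 815 CPM per kb in iRGC replicates 1, 2 and 3 and 1961, 1803 and 2408 CPM per kb in the cRGC replicates. While the sum differed widely and did not overlap, the shares were close. Ina made up 49.97% ± 1.74 of the sum in iRGCs and 49.1% ± 2.29 in cRGCs (exact permutation test, p = 0.7). Nefl made up 29.4% ± 3.40 and 31.8% ± 1.55 (exact permutation test, p = 0.4), and Nefm 20.1% ± 1.73 and 18.8% ± 1.44 (exact permutation test, p = 0.4). The heavy subunit and peripherin were both traces. Nefh was at 0.143% ± 0.0406 in iRGCs and 0.131% ± 0.0256 in cRGCs, and Prph at 0.355% ± 0.276 and 0.222% ± 0.0426 (exact permutation tests, p = 0.7 for both). No share was separated between the populations beyond its spread, and 3 libraries per population cannot show that the shares were equal. The shares rest on all exonic bases, and their sizes depend on that choice. Per kilobase of unshared exonic bases, the cRGC means were 1170 CPM for Ina, 974 for Nefl and 482 for Nefm. The iRGC means were 318, 245 and 137. Shares on that scale were not computed.

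**Figure D2:**
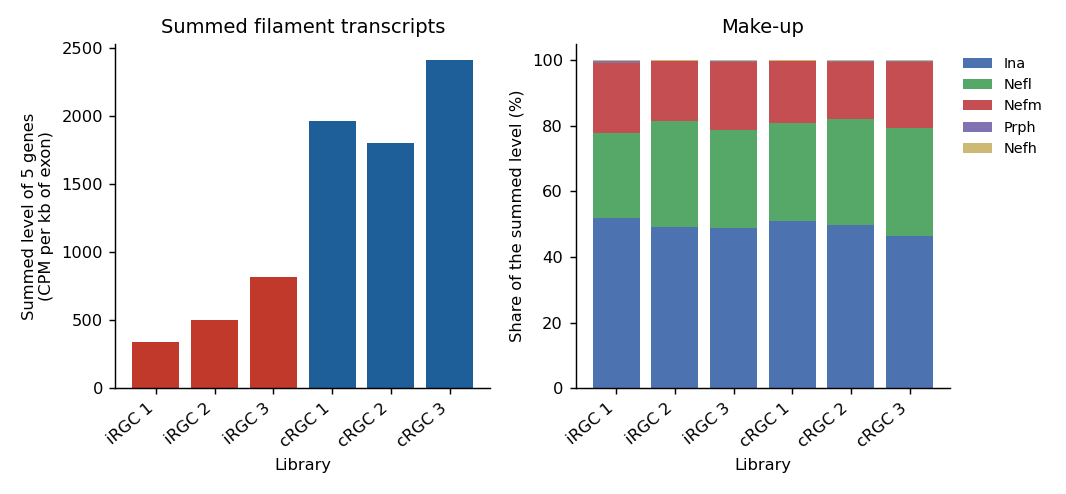
Make-up of the neuronal intermediate filament transcripts per library, as the share in percent of the summed CPM per kilobase of exon of Nefl, Nefm, Nefh, Ina and Prph. Exon lengths include bases shared with other genes, and the shares depend on that choice. Ina holds between 46.5% and 52.0% of each library while the summed level runs from 337 to 815 in iRGCs and from 1803 to 2408 in cRGCs.

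Ratios of member genes within a library gave a similar picture. Their sizes depend on the exon lengths used, and their log2 differences between the populations do not. The Nefm to Nefl ratio per kilobase was 0.834, 0.560 and 0.686 in the iRGC replicates and 0.627, 0.535 and 0.615 in the cRGC replicates, a mean log2 difference of 0.21 with overlap. The Ina to Nefl ratio was 1.72 ± 0.265 in iRGCs and 1.55 ± 0.142 in cRGCs, a log2 difference of 0.14. For the synucleins, the Sncg to Sncb ratio was 102 ± 39.98 in iRGCs and 117 ± 46.9 in cRGCs, a log2 difference of -0.20. The log2 difference was 0.22 for the Nefh to Nefl ratio and 0.50 for the Prph to Nefl ratio, whose range on leaving out single libraries was the widest of the 5 ratios, from -0.20 to 1.13. All 5 ratios overlapped between the populations, and the adjusted p was 0.7 for each (exact permutation tests, Benjamini-Hochberg over 5 ratios).

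The iRGC libraries also differed among themselves. In 7 of the 8 genes the highest iRGC library was replicate 3, and Prph was the exception. Over all tested genes replicate 3 was the highest iRGC library in 41%, and among the 3688 genes called lower in iRGCs in 70.3%. For Sncg, Nefl, Nefm and Ina the lowest iRGC library was replicate 1. Replicate 1 was also the lowest and replicate 3 the highest iRGC library in the level of a list of 18 ganglion cell genes. That list, which includes RGC transcription factors and axonal proteins among others, holds none of the 8 genes described here. The mean log2 CPM of that list was 6.20, 6.65 and 7.09 in iRGC replicates 1, 2 and 3 and 8.69, 8.52 and 8.36 in the cRGC replicates. A list of 16 retinal progenitor genes ran the other way, at 8.42, 8.29 and 8.10 in iRGCs and 4.93, 6.35 and 5.60 in cRGCs. Of the ganglion cell list, 17 of 18 tested genes were called lower in iRGCs and 0 higher, with a median log2 fold change of -1.93, and the exception was Chrna6, which was called lower without cRGC replicate 3 (edgeR BH-adjusted p = 0.0272). All 16 progenitor genes were called higher, with a median of 2.58. The part that the mix of ganglion cells and progenitors in each sort had in the levels of the 8 genes was not tested.

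Set against the ganglion cell list of the same library, a measure added after the values were seen, the libraries of both populations overlapped for each of the 8 genes, also for the 7 that separated them in CPM. Sncg lay 1.25, 1.09 and 1.62 log2 units above the list mean in the iRGC replicates and 1.31, 1.51 and 1.64 above it in the cRGC replicates. Ina lay 2.95, 2.99 and 3.24 above it in iRGCs and 2.97, 2.99 and 3.47 in cRGCs. The range over all 6 libraries was narrowest for these genes, at 0.52 log2 units for Ina and 0.55 for Sncg, and was 0.80 for Nefm, 0.96 for Nefh, 1.03 for Nefl, 1.42 for Sncb, 2.20 for Prph and 3.53 for Thy1. The difference of iRGCs minus cRGCs on this scale was -0.17 for Sncg, 0.03 for Sncb, -0.22 for Nefl, -0.01 for Nefm, -0.01 for Nefh, -0.08 for Ina, 0.28 for Prph and -0.02 for Thy1. Single libraries set the sign of most of these differences, which changed for 7 of the 8 genes, all but Sncg, when a library was left out. For Thy1 the small mean difference covers this wide spread, from -3.15 in cRGC replicate 1 to -6.68 in cRGC replicate 3.

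**Figure D3:**
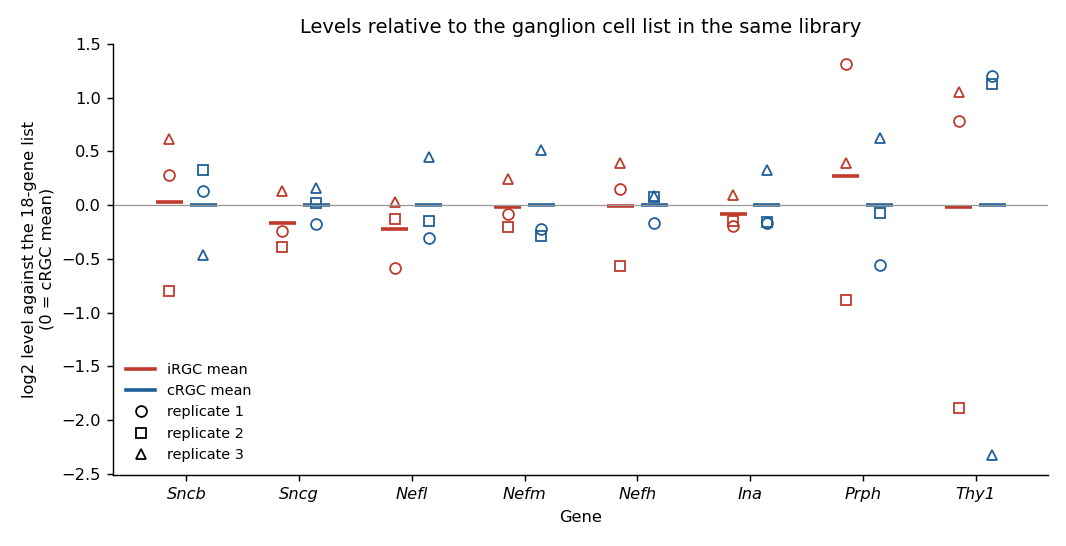
Level of each of the 8 genes relative to the mean of 18 ganglion cell genes in the same library, in log2 units, with 1 point per library and population means as bars. Each gene is plotted as the difference from its own cRGC mean on this scale. The points of both populations overlap for all 8 genes, and Thy1 has the widest spread.

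Related genes, in 4 lists, were read from the same fit. The first holds the other intermediate filament genes, of which 11 of 13 were tested, 1 was called lower in iRGCs, 6 were called higher and 4 were not called, with a median log2 fold change of 1.27. Vim, the vimentin gene of progenitors and glia, was at 455, 612 and 494 CPM in iRGCs and 330, 337 and 537 CPM in cRGCs and did not pass (log2 fold change 0.38, edgeR BH-adjusted p = 0.177), but it did without cRGC replicate 3 (0.65, edgeR BH-adjusted p = 0.0146). Lmnb1, which encodes the nuclear lamin B1, was higher in iRGCs at a log2 fold change of 1.01 (SE 0.0948). Krt8 and Krt18, keratin genes of simple epithelia, had log2 fold changes of 4.38 and 3.57, but Krt8 rested on 13.5, 0.0618 and 2.46 CPM in iRGCs against 0, 0.0690 and 0.678 CPM in cRGCs. Both keratin calls were lost in limma voom, with adjusted p-values of 0.423 for Krt8 and 0.155 for Krt18, and without iRGC replicate 1, with 0.366 and 0.159 in edgeR. Krt8 was also lost without cRGC replicate 1 (0.170) or 2 (0.178), and Krt18 without cRGC replicate 2 (0.113). Synm and Nes were named after their values were seen. Synm, the synemin gene, was the only one of the list called lower, at 70.4, 112 and 157 CPM in iRGCs and 453, 485 and 694 CPM in cRGCs (log2 fold change -2.27, SE 0.285). Nes, the nestin gene of neural progenitors, was higher at 2.004 (SE 0.182). Besides Vim, the 4 relatives not called included the keratin gene Krt19.

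The second list holds linkers, motors and kinases that act on neurofilaments, of which 13 of 15 were called lower in iRGCs, 0 higher and 2 not, with a median log2 fold change of -1.04. Dync1h1, the heavy chain of the dynein motor, was lower by a log2 fold change of -0.82 (SE 0.102), and Klc1, a kinesin light chain, by -1.49 (SE 0.202). Cdk5r2, an activator of the neurofilament kinase Cdk5, had -1.999 (SE 0.281), and Mapk10, a neuronal stress kinase, -1.91 (SE 0.214). Among the kinesin heavy chains, named after their values were seen, the neuronal genes Kif5a and Kif5c were lower, at -1.74 (SE 0.242) and -1.59 (SE 0.175). The broadly expressed Kif5b was not called, at 186, 168 and 194 CPM in iRGCs and 198, 185 and 194 CPM in cRGCs.

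The third list holds presynaptic partners of synucleins, of which 9 of 11 were called lower, 0 higher and 2 not, with a median of -1.47. Snap25, a SNARE gene, had a log2 difference of -1.47 (SE 0.190). Syn1, the synapsin gene of vesicle clusters, had -1.92 (SE 0.246), and Cplx1, a complexin gene, -1.70 (SE 0.339). Uncalled were Hspa8, a chaperone gene, at -0.03 and Cplx2 at -0.04, both named after their values were seen. The complexin genes differed in their counts, since Cplx1 was at 18.2, 24.0 and 50.2 CPM in iRGCs and 106, 112 and 80.8 CPM in cRGCs, while Cplx2 was at 256, 233 and 330.4 CPM and 348, 300.5 and 193 CPM.

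The fourth list holds surface proteins with immunoglobulin domains, most of them GPI-anchored like Thy1, of which 7 of 13 were called lower, 1 higher and 5 not, with a median of -0.64. Ncam1, the neural cell adhesion molecule gene, was lower by -0.64 on the log2 scale (SE 0.106). Cntn2, an axonal contactin gene, was at 319, 374 and 412 CPM in iRGCs and 1764, 1226 and 1455 CPM in cRGCs (log2 fold change -2.01, SE 0.159), and Cntn5 had -2.22 (SE 0.395). Cntn3 was the only one higher, at 1.53 (SE 0.602), and was named after its values were seen. Its call was lost without iRGC replicate 1 or 2 or cRGC replicate 1 or 3, at adjusted p-values of 0.149 to 0.203 in edgeR.

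**Figure D4:**
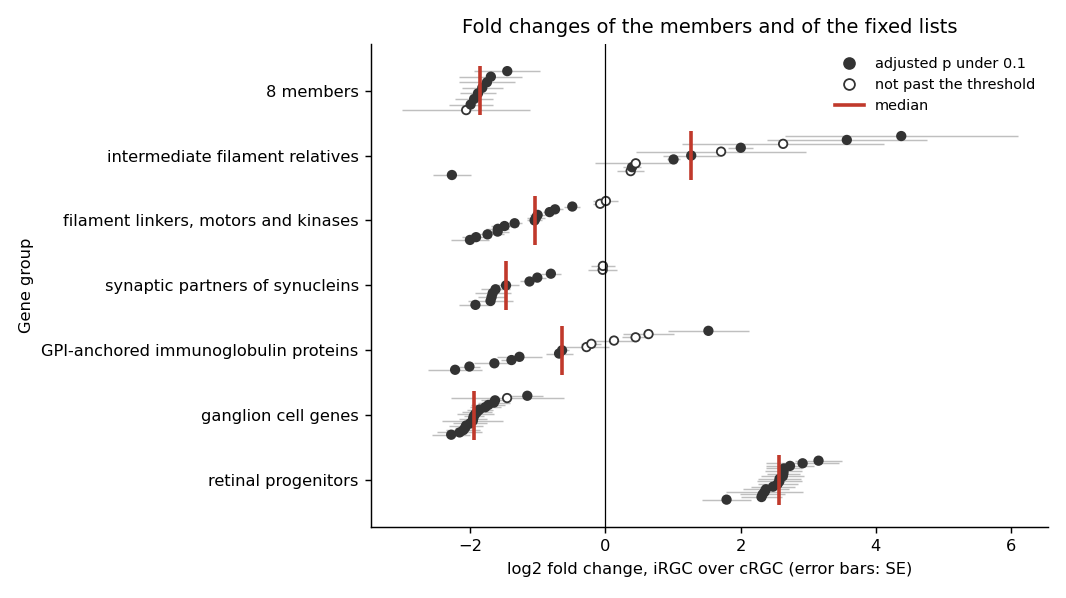
Log2 fold change of iRGCs over cRGCs for the 8 genes, 4 lists of related genes, ganglion cell genes and retinal progenitor genes, with 1 point per gene, filled at an adjusted p under 0.1, and the median of each group as a red line. The 8 genes have a median of -1.85, close to the -1.93 of the ganglion cell genes, and the progenitor genes lie above 0 with a median of 2.58.

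The genes whose pattern over the 6 libraries was most like that of each member were found among 12116 genes by the root mean square distance of centred log2 CPM. Agap2 (0.0487), Cdk5r2 (0.0553) and Ppp2r2b (0.0662) were nearest to Sncg, and 2900011O08Rik (0.0491), Gng3 (0.0535) and Dscam (0.0779) to Ina. Nefl was nearest to Smim18 (0.0863) and Nefm to Islr2 (0.0986), while Nefh was nearest to Ntm (0.107). The scarcer genes had no close neighbours, with AI854703 at 0.297 for Prph. Nearest to Thy1 were Cpne4 (0.605), Chrna6 (0.625) and Chrnb3 (0.759), the last 2 being genes of nicotinic acetylcholine receptor subunits. Like Thy1, Chrnb3 was low in cRGC replicate 3, at 171, 126 and 24.6 CPM in the cRGC replicates and 12.5, 10.2 and 31.7 CPM in the iRGC replicates. Cpne4, a copine gene, was at 59.5, 41.9 and 6.74 CPM in the cRGC replicates and 3.22, 1.85 and 17.8 CPM in the iRGC replicates. These neighbours were chosen for their likeness, so their values are a description. Among the members themselves, Nefm and Ina were 0.119 apart and Sncg and Ina 0.135, while Thy1 was at least 1.07 from every other member.

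Markers of other cells that the gate could hold were read as lists. Summed levels are given for iRGC replicates 1, 2 and 3 and then for the cRGC replicates. The ganglion cell list summed to 2695, 3800 and 5123 CPM and to 14200, 12631 and 14718 CPM, with Tubb3 as its most abundant gene. The retinal progenitor list summed to 10194, 8794 and 7831 CPM and to 857, 2277 and 1394 CPM, with Ccnd1, a cyclin gene of dividing progenitors, as the most abundant. All 12 genes of neurogenic precursors were called higher in iRGCs, and they summed to 2154, 2238 and 2029 CPM and to 463, 758 and 642 CPM, led by Hes6. Progenitor and precursor transcripts were thus higher in every iRGC library.

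Markers of the other retinal neurons moved less uniformly. Of 10 amacrine genes, 7 were called higher in iRGCs and 1, Barhl2, lower, with sums of 387, 326 and 480 CPM and of 288, 287 and 195 CPM, led by Tfap2b. Of 7 horizontal cell genes, 2 were called higher and 5 not, with sums of 427, 411 and 439 CPM and of 320, 338 and 438 CPM, led by Onecut2. The horizontal cell list shares Tfap2b, one of its called genes, with the amacrine list, and the other called gene was Prox1. Onecut1 and Onecut2, not called, had log2 fold changes of -0.58 and -0.56. In DESeq2 and some other alternatives both were called lower (DESeq2 adjusted p = 0.0908 and 0.0591). Lhx1 was called higher in DESeq2 (adjusted p = 0.0835). Of 7 tested photoreceptor precursor genes, 6 were called higher and 1, Rxrg, lower, with sums of 824, 655 and 649 CPM and of 173, 261 and 209 CPM, led by Otx2, and 1 of the calls as higher was lost without cRGC replicate 1 or 3.

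Vascular, connective tissue and microglial markers were read next. Of 7 tested endothelial genes all 7 were called higher in iRGCs, with sums of 448, 600 and 436 CPM and of 88.9, 109.6 and 72.4 CPM, most of which was Kdr, a gene that retinal progenitors also express. Kdr and Cldn5 were called under every alternative, while Pecam1, Flt1, Esam, Egfl7 and Ramp2 lost the call in limma voom, at adjusted p-values of 0.240 to 0.537, and all of these but Flt1 also without iRGC replicate 2. Pecam1, a defining endothelial gene, was at 9.65, 53.0 and 0.284 CPM in the iRGC replicates and 0, 0.725 and 0 CPM in the cRGC replicates, and Cdh5 was at 0 in every cRGC library. The endothelial sum was thus highest in iRGC replicate 2, and its part in the levels of the 8 genes was not tested. Of 5 tested mural cell genes 4 were called higher, with sums of 135, 280.0 and 111 CPM and of 21.9, 32.6 and 23.3 CPM, led by Notch3. The calls of the mural genes Rgs5, in limma voom (adjusted p = 0.420), and Vtn, without iRGC replicate 2 (0.125 in edgeR), were lost. Of 4 tested fibroblast genes 1, Col1a2, was called higher, with sums of 17.7, 28.8 and 9.77 CPM and of 11.99, 10.9 and 10.9 CPM, and Lum was at 0 in all libraries. Of 7 tested microglial genes 4 were called higher, with sums of 18.6, 26.7 and 17.8 CPM and of 1.85, 4.42 and 1.68 CPM, led by Csf1r, and 2 of these calls were lost when single libraries were left out.

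Cells outside the retina that make peripherin or Thy1 were covered as well. Peripheral sensory neuron genes summed to 9.36, 10.3 and 11.2 CPM in iRGCs and to 30.4, 31.4 and 37.4 CPM in cRGCs. Of the 4 genes tested, 3 were called lower in iRGCs, as Prph was. Among them were Runx1, the most abundant of the list, and Avil, whose call was lost on leaving out any single library. The defining gene Scn10a was at 0 in every iRGC library and at 0.692, 0 and 0.290 CPM in the cRGC replicates. T lymphocyte genes summed to 5.11, 2.81 and 6.59 CPM and to 4.42, 5.35 and 4.36 CPM, with 2 genes tested and neither called. Cd3e and Trac were at 0 in all libraries, while Lck, the most abundant gene of the list, was at 0, 1.79 and 4.57 CPM in iRGCs and 4.15, 4.80 and 4.29 CPM in cRGCs. Lens genes summed to 0.868, 7.42 and 0.725 CPM and to 0.923, 0 and 0.355 CPM, with 1 gene tested and not called, and Mip and Lim2 were at 0. The part of these cells in the levels of the 8 genes was not tested.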

How the data were processed

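Counts from 6 RNA-seq libraries of sorted E16.5 retinal cells were used, and the study's 13 ATAC-seq samples were not analysed here. The authors aligned reads with HISAT2 2.1.0 to mm10, counted them per gene with HTSeq 0.11.1 on the Ensembl annotation of GRCm38, and deposited raw counts per gene and library, without normalization. The study tested them with DESeq2 1.26.0. HTSeq tallies that name no gene, 43.13% to 47.32% of each library's tallies, stayed out of library sizes and tests. Symbols, positions and exon lengths came from GENCODE M21 for 46574 of 47069 genes.

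The test was edgeR 4.0.16 in R 4.3.3, on the 15941 genes left by filterByExpr, with TMM factors of 0.921 to 1.10, Benjamini-Hochberg adjustment and a quasi-likelihood F test with no block, from whose F statistic SEs were derived. The biological coefficient of variation was 36.27%, which with 3 libraries a side limits what can be detected for scarce genes. The submitters call the libraries biological replicates, and p-values measure the spread between them. CPM per kb divides CPM by the exonic length of all transcripts of a gene.

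The 8 genes, the 4 lists of related genes (intermediate filament relatives, linkers with motors and kinases, synaptic partners, immunoglobulin surface proteins) and the 13 marker lists were chosen with earlier results of these data known. In each list of related genes, the rule named the 2 most abundant tested genes and the 2 called genes with the largest change. For each member, likeness named the 3 nearest genes with a mean of at least 100 counts. Some genes that these rules name are not reported here. Alternatives were RLE and upper quartile factors, DESeq2 1.42.0, limma 3.58.1 voom, no filter or at least 10 counts in every library, an adjusted p under 0.05, a replicate block, and each library left out. The fit was tested on simulated data. Figures were drawn with matplotlib 3.10.9.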

Additional observations from a re-analysis of the deposited data

How the results depend on the processing

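Of 210 fold changes and counts of calls recomputed for the 8 genes, all tested genes and the lists of related genes, 203 kept their side of the threshold or, for counts, stayed within 1.5 times, and no called fold change changed its sign. Of 40 values of the ratios, which were not called, 3 changed sign: Sncg to Sncb without cRGC replicate 3 (0.11), and Nefh to Nefl (-0.04) and Prph to Nefl (-0.20) without iRGC replicate 1. The 7 values outside the 203 concern Prph, Thy1 and the intermediate filament relatives. Prph was not called without cRGC replicate 3 (log2 fold change -1.18). Thy1 was called with no filter on low counts (-2.05, adjusted p = 0.0321), with at least 10 counts in every library (-2.05, adjusted p = 0.0922), without iRGC replicate 3 (-2.99, adjusted p = 0.0558) and without cRGC replicate 3 (-2.59, adjusted p = 0.0278), all in edgeR with BH adjustment, so that 7 to 8 members were called lower on leaving out single libraries. The log2 fold change ran from -1.70 to -1.07 for Prph and from -2.99 to -1.56 for Thy1. The called intermediate filament relatives numbered 7, and 4 to 7 without single libraries, the 4 without cRGC replicate 1. The cause was not tested. The replicate block also lost the calls of Krt8 and Krt18 and of the lamin gene Lmna, with adjusted p-values of 0.254, 0.107 and 0.111. Lmna was further lost without iRGC replicate 3 (0.141) or cRGC replicate 1 (0.115) or 3 (0.122). Lmnb2, another lamin gene, was lost without iRGC replicate 2 (0.131) or cRGC replicate 1 (0.106) or 3 (0.118). Of these relatives, Nes, Synm and Lmnb1 alone were called under every alternative.

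The replicate numbers are shared by both populations, but libraries with the same number did not deviate together (correlations of -0.012, -0.024 and -0.055 over genes). Deviations from means of 3 libraries cannot exclude that libraries with the same number were prepared together. With the replicate block, 6751 genes were called against 7395 without it, 6660 of them in both, the calls of the 8 genes did not change, and 4 intermediate filament relatives were called. Of the 48 values relative to the ganglion cell list with single libraries left out, 16, from 7 genes, changed sign. Sncb, Nefh, Prph and Thy1 had 43 to 439 counts per iRGC library, which limits the precision of their changes.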
